A study of Ovis aries with 6 samples.

Results

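The subunit genes of AMP-activated protein kinase (AMPK) and the gene of its main upstream kinase were followed in the longissimus muscle of 2 sheep breeds. The 8 genes were taken by name, PRKAA1, PRKAA2, PRKAB1, PRKAB2, PRKAG1, PRKAG2, PRKAG3 and STK11, from the 23144 genes of the deposited count table. All 8 were found under these symbols, and all 8 passed the filter for low counts. The libraries came from 1-year-old ewes, of which 3 were Qianhua Mutton Merino (QHMM) and the other 3 belonged to the Small Tail Han (STH) breed. All were raised in the same surroundings with no treatment named, and each animal gave 1 library of poly(A) RNA read on an Ion Proton instrument. In the paper's methods, the sheep for slaughter were weighed live after a fast. Every comparison is STH vs. QHMM, and breed is the only difference that the labels give.

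AMPK is the energy sensor of the cell. It is a trimer of a catalytic alpha subunit, a beta subunit that holds the complex together and binds glycogen, and a gamma subunit that binds AMP, ADP and ATP. When ATP runs low, nucleotide binding to gamma and phosphorylation of the activation loop of alpha switch the kinase on, and it then favours glucose uptake and fatty acid oxidation over the synthesis of fat, protein and glycogen. Each subunit has several isoforms with a gene each, and skeletal muscle is known for the alpha2, beta2 and gamma3 forms. STK11, also called LKB1, phosphorylates the activation loop. These functions are set by nucleotides and phosphate groups, so that messenger RNA levels do not give the activity of the kinase. The amount of subunit protein was not measured either.

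The depth on genes ranged from 10982191 to 14334544 reads. Each library carried the defining genes of skeletal muscle. The summed level of 7 muscle markers was 154395 to 204880 CPM (a gene's share of the library's reads per 1e+06, with the library size scaled by edgeR's TMM method) in QHMM and 110050 to 222560 in STH. On the second principal component of all tested genes, with 19.1% of the variance, the remaining 4 libraries stood together, away from QHMM replicate 2 and STH replicate 3. For PRKAA1, PRKAA2, PRKAG3 and STK11, estimates without 1 or both of these libraries are also given.

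None of the 8 genes was a differentially expressed gene (DEG) in edgeR's quasi-likelihood test, where a call needs an FDR below 0.05 over all 12506 tested genes and a fold change above 1.5. In that test 3.45% of all tested genes were called, 1.62% up-regulated and 1.83% down-regulated in STH. Before adjustment, 2 of the 8 had a p-value below 0.05, against 19.2% of all tested genes (9.43% higher and 9.72% lower in STH), and both, PRKAB2 and PRKAG3, were lower in STH. DESeq2 called 1 of the 8, PRKAG3, and limma-trend on RPKM called 0. edgeR also called PRKAG3 when STH replicate 3 was left out. The paper used the program EBSeq with the same cut-offs. It names PRKAG3 in a co-expression network of QHMM that was built from its DEGs. The 3 STH libraries lay apart from the 3 QHMM libraries in the same 2 genes, and 24.7% of all tested genes had breeds that did not overlap, 13% with STH above and 11.7% with STH below. The median log2 fold change was -0.23 over the 8 genes and 0.02 over all tested genes, with 3 of the 8 higher and 5 lower in STH.

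**Figure D1:**
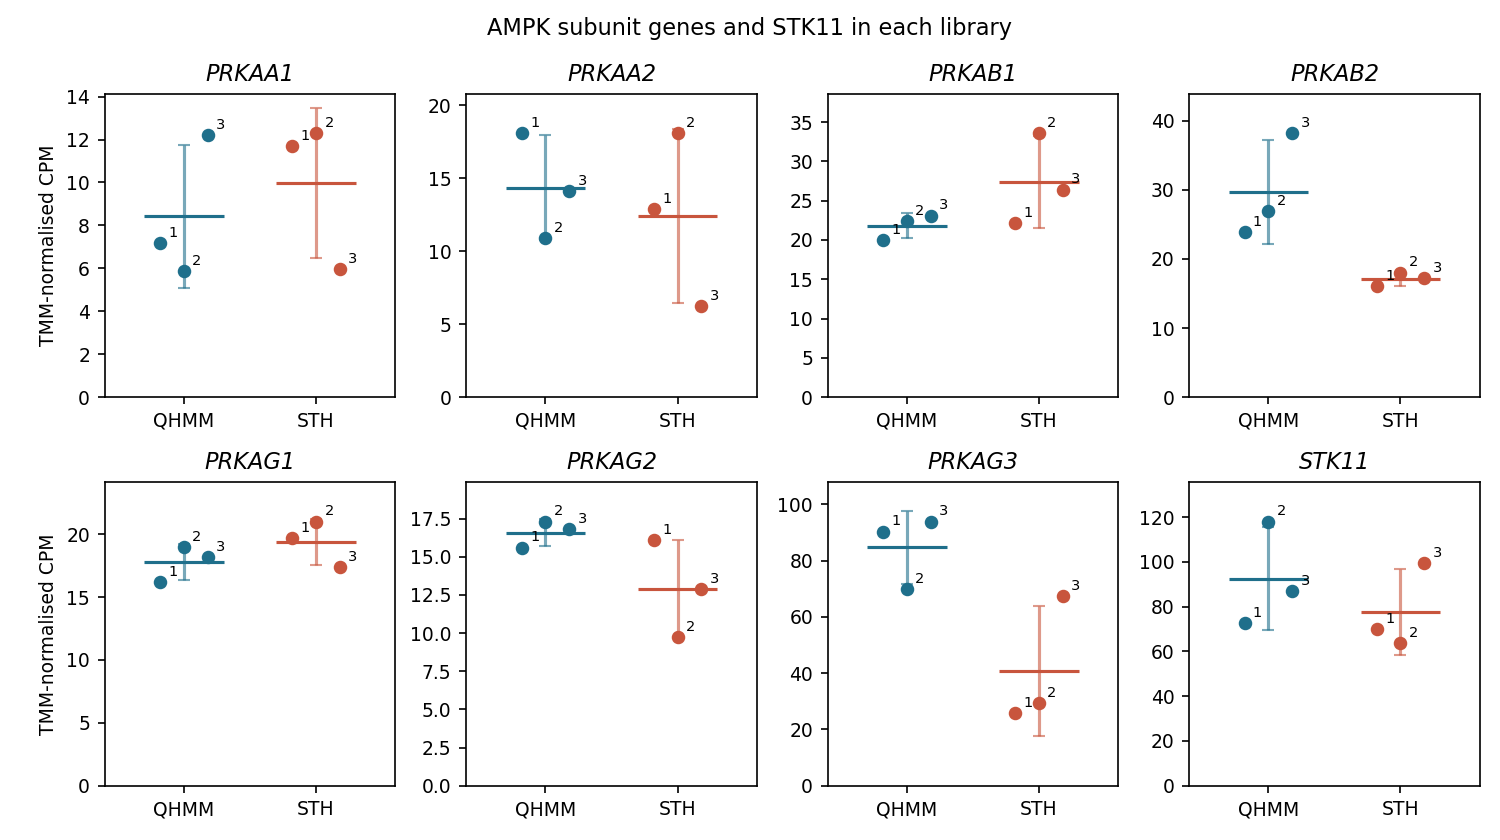
TMM-normalised CPM (y axis, from 0, a separate scale in each panel) of the 8 genes in the 3 QHMM and 3 STH libraries (x axis), with points numbered by replicate, a horizontal bar for the mean and a vertical bar for 1 SD. The breeds separate for PRKAB2 and PRKAG3, where STH replicate 3 (67.3) sits just under QHMM replicate 2 (69.9).

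Levels were compared between genes on the RPKM scale, which divides reads by gene length. STK11 had the most transcript per length of the 8 in QHMM, with 42.3 ± 6.57 RPKM (mean ± SD, n = 3), followed by PRKAG3 with 38.3 ± 9.31, whose libraries overlapped with those of STK11. PRKAB2 came next with 21.5 ± 6.81 RPKM, overlapped with PRKAG3 and was above PRKAG1 (10.6 ± 0.892) in every QHMM library. The other 4 genes had means of 3.73 to 8.66 RPKM in QHMM, with PRKAA1 lowest.

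In STH the order of the first 6 genes was the same, but the spacing was not. STK11, with 38.3 ± 3.93 RPKM (n = 3), stood apart from PRKAG3, with 18.7 ± 6.91. The ranges of PRKAG3, PRKAB2 (13.4 ± 2.12), PRKAG1 (12.7 ± 3.04) and PRKAB1 (11.8 ± 3.1) overlapped from each gene to the next. PRKAA1 and PRKAG2 closed the list with 4.92 ± 2.27 and 4.80 ± 1.71 RPKM. Among all tested genes, the mean RPKM over the 6 libraries put STK11 at percentile 88.6, PRKAG3 at percentile 85.0 and PRKAA1 at percentile 45.1. These levels rest on the gene lengths the authors used, which were 1338 bases for PRKAB2 and 1610 to 2853 bases for the other 7 genes.

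The catalytic alpha subunits did not separate the breeds. PRKAA2, which encodes the alpha2 subunit, had 18.1, 10.9 and 14.1 CPM in replicates 1, 2 and 3 of QHMM, and the STH animals had 12.9, 18.1 and 6.24. PRKAA1, which encodes the alpha1 subunit found in most tissues, had 7.18, 5.88 and 12.2 CPM in QHMM, against 11.7, 12.3 and 5.98 for STH. For both genes the breeds overlapped, and the lowest library of each breed was the one set apart on the second component, QHMM replicate 2 and STH replicate 3.

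The log2 fold change was -0.21 for PRKAA2 (SE 0.36, FDR = 0.802) and 0.25 for PRKAA1 (SE 0.35, FDR = 0.749). The 95% intervals, -1.01 to 0.59 and -0.53 to 1.04, take in a level 1.5-fold higher in STH for both genes and 1.5-fold lower for PRKAA2, so that differences of that size lie within the error of these 6 animals. Without STH replicate 3, PRKAA2 had 0.11 in place of -0.21, a change of sign, and without QHMM replicate 2 as well it had -0.07 (FDR = 0.940). PRKAA1 had 0.06 without QHMM replicate 2, 0.52 without STH replicate 3 and 0.30 (FDR = 0.715) without both. Within the alpha class, PRKAA2 made up 76.6%, 70.6% and 60.2% of the summed RPKM in the QHMM libraries, in replicate order, against 58.8%, 65.7% and 57.6% for STH. PRKAA2 was thus the larger part in all 6 libraries. The breeds overlapped, with means of 69.1% and 60.7% (exact permutation test, two-sided, p = 0.20, adjusted over 5 shares 0.25).

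Neither beta subunit gene passed the test, and the breeds did not overlap for PRKAB2. This gene encodes the beta2 subunit, the main beta form of skeletal muscle. The QHMM animals, in replicate order, had 23.9, 26.9 and 38.2 CPM, and those of STH had 16.1, 18 and 17.2. The STH animals were close together, all below the lowest QHMM animal, and the QHMM spread came from replicate 3. The log2 fold change was -0.79 (SE 0.24, 95% interval -1.31 to -0.27), a level 1.73-fold higher in QHMM, and 864th of all tested genes by p-value. With an edgeR FDR of 0.0962 it did not pass the threshold, and none of the alternatives called it, where the FDR lay between 0.0551 and 0.311. With 1 or 2 libraries left out, the log2 fold change of PRKAB2 lay between -0.95 and -0.57.

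PRKAB1, which encodes the widely expressed beta1 subunit, had 20, 22.4 and 23.1 CPM in QHMM, against 22.1, 33.6 and 26.4 for STH. The breeds overlapped through STH replicate 1, and its difference of 0.33 on the log2 scale (SE 0.22, FDR = 0.471) did not pass. The make-up of the class was compared as a share, which no library scaling can move. PRKAB2 made up 68.4%, 68.6% and 75% of the summed beta RPKM in QHMM, in replicate order. In STH it made up 56.9%, 49.3% and 54.2%. The highest STH share was below the lowest QHMM share, and in STH replicate 2 PRKAB1 had slightly more RPKM than PRKAB2. The means were 70.6% ± 3.76 and 53.5% ± 3.88 (SD, n = 3 each), a difference of -17.2 percentage points. The exact permutation test gave p = 0.10, the smallest that 3 animals against 3 allow, and 0.25 when adjusted over the 5 shares. With any 1 library left out, the difference stayed between -18.9 and -15.0 points.

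**Figure D2:**
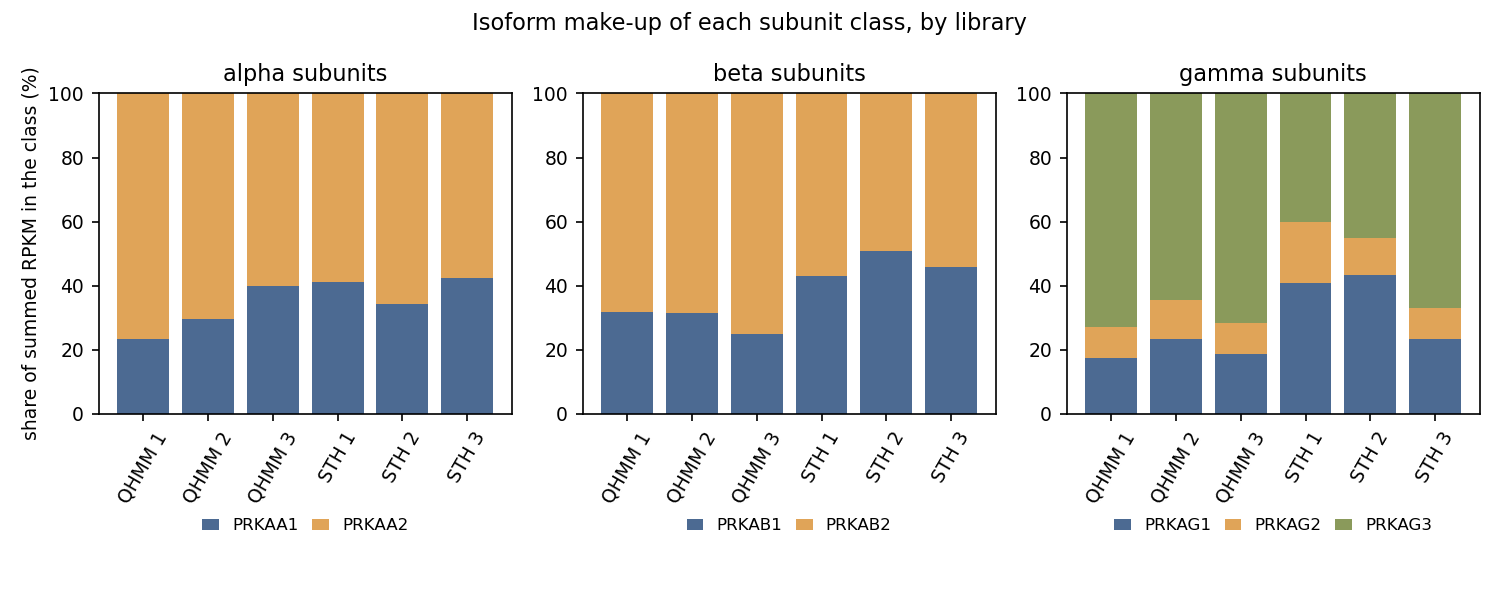
Share of the summed RPKM of each subunit class (y axis, percent) taken by each isoform gene in the 6 libraries (x axis), with 1 stacked bar per library and 1 panel per class. PRKAB2 takes 68.4% to 75% in QHMM and 49.3% to 56.9% in STH, and PRKAG3 takes 64.5% to 73% in QHMM and 40.2% to 67.1% in STH.

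Of the gamma genes, PRKAG3 was the most abundant and had the largest fold change of the 8. It encodes the gamma3 subunit, which is found almost only in skeletal muscle and mostly in fast fibres, and variants of this gene in pigs change muscle glycogen and meat quality. In replicate order, QHMM had 90.3, 69.9 and 93.9 CPM, and STH had 25.8, 29.3 and 67.3. STH replicates 1 and 2 were far below all QHMM animals, while STH replicate 3 came close to QHMM replicate 2. The mean was 84.7 ± 13 in QHMM and 40.8 ± 23 in STH (SD, n = 3 each), and the coefficient of variation was 15.3% and 56.3%.

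The log2 fold change of PRKAG3 was -1.05 (SE 0.34, 95% interval -1.82 to -0.29), a level 2.08-fold higher in QHMM, with an edgeR FDR of 0.125, and the gene was 1131st of all tested genes by p-value. Of the edgeR fits with 1 library left out, only that without STH replicate 3 called the gene. Without STH replicate 3 the log2 fold change was -1.62 with FDR = 0.0182, past the threshold, whereas without STH replicate 1 it was -0.82 with FDR = 0.225. Without QHMM replicate 2 and STH replicate 3 together it was -1.75 (FDR = 0.0604). DESeq2 on all 6 libraries gave -1.07 with FDR = 0.0318 and called the gene. The sign was negative in every setting that was run.

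Markers of fibre types were set beside this gene. The summed level of the 12 fast-fibre markers was 138082, 176526 and 138342 CPM in the QHMM libraries, in replicate order, and 104261, 92529 and 149794 for STH. In CPM, STH replicate 3, with the most PRKAG3 of its breed, thus also had the most fast-fibre transcript of its breed. QHMM replicate 2, with the least PRKAG3 of its breed, had the most. The TMM factor was low in both, 0.853 and 0.852, beside 1.01 to 1.20 elsewhere. A lower factor raises every CPM of a library, so part of the lead in these sums comes from scaling. In RPKM, which uses no TMM factor, PRKAG3 was still highest in STH replicate 3 (26.6, against 14.3 and 15 in its breed). None of the 11 fast-fibre markers tested was called, and TNNT3 was listed at 0 in every library. Of these 11, 10 were lower in STH, and the median log2 fold change was -0.32, beside 0.02 over all tested genes. MYH2, ACTN3 and CASQ1 were lower in STH with an unadjusted p below 0.05 and with breeds that did not overlap, which is 3 of 11, where 9.72% and 11.7% of all tested genes met these criteria. The 10 slow-fibre markers summed to 32850 to 35703 CPM in QHMM and 12702 to 15421 in STH, with 5 of the 10 called, all down-regulated in STH. The part of fibre type in the PRKAG3 values was not tested. In whole muscle, fewer fibres of a type and less RNA per fibre cannot be told apart.

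PRKAG1 encodes the widely expressed gamma1 subunit. Its CPM was 16.2, 19 and 18.2 in QHMM, in replicate order, against 19.7, 21 and 17.4 for STH. All 6 animals lay between 16.2 and 21, and the log2 fold change of 0.12 had a 95% interval of -0.35 to 0.59 (SE 0.21, FDR = 0.806). PRKAG2, which encodes the gamma2 subunit known from the heart, had 15.6, 17.3 and 16.8 CPM in QHMM, against 16.1, 9.75 and 12.9 for STH. STH replicate 1 was within the QHMM range and the other STH libraries were below it. The log2 fold change of PRKAG2 was -0.35 (SE 0.25, FDR = 0.478).

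As a share of the summed gamma RPKM, PRKAG3 made up 73%, 64.5% and 71.7% in QHMM, in replicate order, against 40.2%, 45.3% and 67.1% for STH. Only STH replicate 3 reached the QHMM range. In STH replicates 1 and 2, PRKAG3 and PRKAG1 had nearly the same RPKM, with a ratio of 0.982 and 1.04, where the ratio was 2.75 to 4.18 in QHMM and 2.89 in STH replicate 3. The mean PRKAG3 share was 69.7% ± 4.59 and 50.8% ± 14.3 (SD, n = 3 each), a difference of -18.9 points (exact permutation p = 0.20, adjusted 0.25). Without STH replicate 3 that difference was -27.0 points, and without STH replicate 1 it was -13.6. PRKAG1 made up 19.9% ± 3.19 in QHMM and 35.8% ± 11 in STH (exact permutation p = 0.20), and PRKAG2 10.4% ± 1.41 and 13.3% ± 4.93 (exact permutation p = 0.50).

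**Figure D3:**
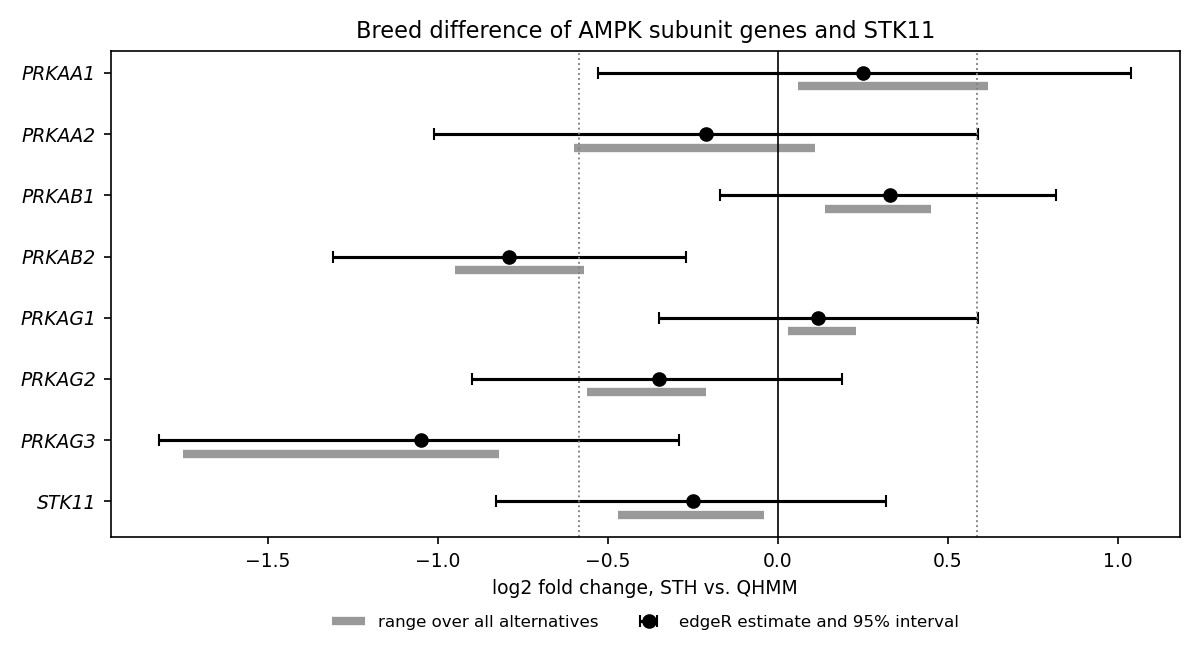
Log2 fold change of STH vs. QHMM (x axis) for the 8 genes (y axis), with the edgeR estimate as a point, its 95% interval as a thin line and the range over all alternatives, those without 1 or 2 libraries included, as a grey bar; dotted lines mark a 1.5-fold difference. The intervals of PRKAB2 (-1.31 to -0.27) and PRKAG3 (-1.82 to -0.29) lie below 0, and those of the other 6 genes include 0.

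STK11 did not separate the breeds. The QHMM animals, in replicate order, had 72.6, 118 and 87.1 CPM and those of STH 69.8, 63.6 and 99.6, a log2 fold change of -0.25 (SE 0.26, 95% interval -0.83 to 0.32, FDR = 0.650). It was -0.04 without QHMM replicate 2, -0.47 without STH replicate 3 and -0.27 (FDR = 0.645) without both. In CPM, its highest library in each breed was again QHMM replicate 2 or STH replicate 3, the libraries in which the alpha genes were lowest. RPKM uses no TMM factor, and there STH replicate 3 (40.9) was nearly level with STH replicate 1 (40.2), while STH replicate 2 had 33.8. QHMM had 35.4, 48.4 and 43.2 RPKM in replicate order. On the per-length scale, STK11 had 6.30 and 7.56 times the summed alpha RPKM in QHMM replicate 2 and STH replicate 3. It had 1.90 to 3.05 times in the other 4. The summed alpha RPKM was 7.68 in QHMM replicate 2 and 5.42 in STH replicate 3 and 14 to 17.8 elsewhere. This ratio was set up after the values had been seen and is a description with no test, and the part of library preparation or RNA quality in it was not tested.

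STK11 works in a complex with a STRAD pseudokinase and the scaffold CAB39, also called MO25. These partners were named after their values had been seen. STRADB had 46.3 ± 20.5 RPKM in QHMM and 36.0 ± 4.31 in STH (n = 3 each), and STRADA 4.61 ± 0.803 and 7.83 ± 1.5, so that STRADB was the more abundant STRAD gene in both breeds. CAB39 had 19.9 ± 5.42 and 23.4 ± 3.34 RPKM. The log2 fold change was -0.43 for STRADB (FDR = 0.507), 0.65 for STRADA (FDR = 0.215) and 0.14 for CAB39 (FDR = 0.813), and edgeR called none of these genes. For STRADA the breeds did not overlap, as in 24.7% of all tested genes. The related gene CAB39L, also named after its values had been seen, had -1.04 (SE 0.46, FDR = 0.247). It was not called, and its breeds overlapped.

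The gene profiles most like that of PRKAB2, the member with the smallest p-value, were looked for among all tested genes outside the 8. Likeness was measured as the root mean square difference between mean-centred log2 CPM over the 6 libraries, where 0 is an identical profile. The nearest genes were MUT (0.0590), NDRG4 (0.0743), RHOBTB3 (0.0772), PEBP4 (0.0791) and DNAJC7 (0.0934). MUT encodes methylmalonyl-CoA mutase of mitochondrial propionate breakdown, and DNAJC7 a co-chaperone. MUT had 31.8, 32.8 and 48 CPM in QHMM, against 22, 22.1 and 21.5 for STH, with QHMM replicate 3 highest as in PRKAB2. Since the genes were picked for likeness to PRKAB2, a shared pattern over the libraries follows from the choice. edgeR called none of these 5 genes. Among the 8, the closest pair was PRKAB1 with PRKAG1 (0.186) and the least alike was PRKAA1 with PRKAG3 (1.06). PRKAB2 and PRKAG3 differed by 0.510.

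The genes around the kinase were taken from 5 lists with 74 entries, of which 71 were matched in the table and 68 tested. These lists, chosen with earlier results of these data known, held 9 DEGs. Called were 2 of 15 tested upstream regulators, 0 of 10 related kinases and 4 of 22 substrates. Of the genes of glucose and fatty acid uptake and use, 0 of 9 were called, and of adenine nucleotide balance 3 of 12. The share over all tested genes was 3.45%. The median log2 fold change was 0.14, 0.06, 0.03, 0.25 and -0.55 in the 5 lists, beside 0.02 over all tested genes.

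**Figure D4:**
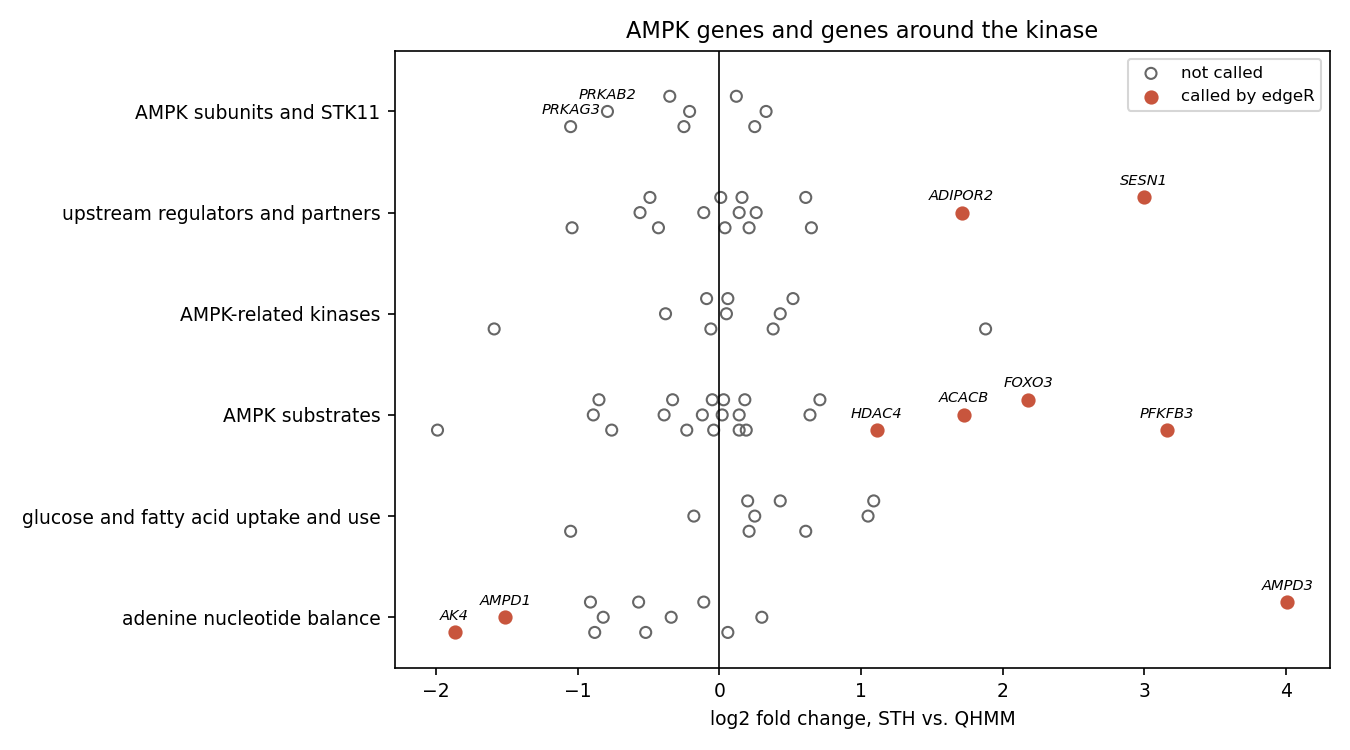
Log2 fold change of STH vs. QHMM (x axis) of each tested gene in the 8 members and in 5 lists of genes around AMPK (y axis, points spread vertically for legibility), with filled points for genes called by edgeR. No member is filled, and the called genes run from AK4 at -1.87 to AMPD3 at 4.01.

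Of the upstream regulators, SESN1 and ADIPOR2 were up-regulated in STH. SESN1 encodes sestrin 1, a stress-induced protein that promotes AMPK activity and restrains mTORC1. It rose from 48.3 ± 11.6 CPM in QHMM to 386 ± 117 for STH (n = 3 each), a difference of 3.0 on the log2 scale (SE 0.30, FDR = 0.00231). Its lowest STH library had 297 CPM and its highest QHMM library 61. ADIPOR2, a receptor for adiponectin, rose from 77.5 ± 38 to 253 ± 69.2, with 1.71 (SE 0.36, FDR = 0.0314). FNIP2, a partner of folliculin that binds AMPK, had 0.61 (FDR = 0.189), and the other 12 tested genes were not called. Only SESN1 was called when QHMM replicate 1, QHMM replicate 3, STH replicate 2 or STH replicate 3 was left out. No gene of any of the 5 lists was called without QHMM replicate 2 and STH replicate 3, when 11 genes in all were called.

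The AMPK-related kinases share STK11 as their activator. edgeR called none of the 10 tested, where 2 had an unadjusted p below 0.05, 1 in each direction (19.2% of all tested genes did), and DESeq2 and limma-trend on RPKM also called none. SIK1, a salt-inducible kinase, showed 1.88 on the log2 scale (SE 0.64, FDR = 0.139), NUAK2 showed -1.59 (SE 0.58, FDR = 0.168) and MARK3 -0.38 (SE 0.19, FDR = 0.319). In replicate order, SIK1 had 36.2, 25.8 and 2.51 CPM in QHMM, against 75.9, 68.1 and 94.3 for STH. NUAK2 had few reads, 40, 34 and 8 in QHMM and 12, 7 and 9 in STH, and its breeds overlapped. SIK1 was called in the fit with no filter on low counts.

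Among 22 genes whose proteins AMPK phosphorylates, 4 were up-regulated in STH and none was down-regulated, while 3 had a lower level with an unadjusted p below 0.05, as did 9.72% of all tested genes. PFKFB3, an activator of glycolysis through fructose-2,6-bisphosphate, rose from 73.7 ± 40.6 CPM to 662 ± 305, a log2 fold change of 3.16 (SE 0.52, FDR = 0.0133). FOXO3, a transcription factor of the atrophy and autophagy programme, rose from 22.7 ± 2.31 to 103 ± 45.5, with 2.18 (SE 0.34, FDR = 0.0114). ACACB encodes the acetyl-CoA carboxylase whose product restrains fatty acid entry into mitochondria. It rose from 121 ± 13.8 to 401 ± 160, with 1.73 (SE 0.31, FDR = 0.0186). HDAC4, a class IIa histone deacetylase, had 1.11 (SE 0.26, FDR = 0.0475). With QHMM replicate 1, 2 or 3 left out, 2 of the 4 were called, FOXO3 and PFKFB3.

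The other acetyl-CoA carboxylase gene, ACACA, which serves fat synthesis, had 157, 21.7 and 29.4 CPM in QHMM, in replicate order, against 17.1, 18.2 and 17.2 for STH. QHMM replicate 1 was far above all other libraries, which lay close together. The log2 fold change was -1.99 (SE 0.62, FDR = 0.109) and, without QHMM replicate 1, -0.57 (FDR = 0.317). edgeR called the gene only in the fit with no filter on low counts (FDR = 0.0199). The 6 adipocyte genes summed to 116 to 395 CPM in QHMM and 53.4 to 80.5 in STH, and QHMM replicate 1 had the highest level of each of them. Of the 6, 4 were down-regulated in STH. FABP4 had 19.6 ± 18.6 CPM in QHMM and 19 ± 13.2 in STH (log2 fold change -0.04, FDR = 0.980), and CIDEA, with -2.01 (FDR = 0.266), was not called either. LEP, the leptin gene, had 0 reads in STH replicate 2, and the other 5 had reads in every library. Their part in the ACACA values was not tested. TBC1D4, which links AMPK and insulin signalling to glucose transporter traffic, had -0.89 (SE 0.22, FDR = 0.0553) and was called by DESeq2 (FDR = 0.0125). ACACA and TBC1D4 were named after their values had been seen.

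edgeR called none of the 9 tested genes of glucose and fatty acid uptake and use, 3 of which had an unadjusted p below 0.05, where 19.2% of all tested genes did. DESeq2 called these 3. limma-trend on log2(RPKM + 1) called PNPLA2 and MLYCD after a filter on low RPKM, and 0 of the list when every gene above 0 was kept. SLC2A4 encodes the insulin- and contraction-responsive glucose transporter GLUT4. It had 157 ± 25.8 CPM in QHMM and 75.9 ± 20.5 for STH, a log2 fold change of -1.05 (SE 0.25, FDR = 0.0508). PNPLA2, the adipose triglyceride lipase, had 1.09 (SE 0.28, FDR = 0.0622), and MLYCD, which removes the malonyl-CoA made by acetyl-CoA carboxylase, had 1.05 (SE 0.29, FDR = 0.0755). The breeds did not overlap in these 3 genes, as in 24.7% of all tested genes. Without QHMM replicate 2 PNPLA2 was called, and without STH replicate 1 MLYCD and SLC2A4 were.

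The enzymes that set the AMP and ADP levels sensed by the gamma subunits included the largest fold change of the 5 lists. AMPD3, an AMP deaminase best known from red blood cells, rose from 8.94 ± 2.96 CPM in QHMM to 144 ± 64.9 for STH (n = 3 each), a log2 fold change of 4.01 (SE 0.41, FDR = 0.00234). AMPD1, the AMP deaminase of skeletal muscle, fell from 639 ± 114 to 224 ± 68.1, with -1.51 (SE 0.28, FDR = 0.0205). AK4, a mitochondrial adenylate kinase, fell from 41.2 ± 14.5 to 11.3 ± 3.84, with -1.87 (SE 0.34, FDR = 0.0193). The other 9 tested genes of this list were not called, and without QHMM replicate 1 only AMPD3 was. Of the 7 blood markers, 4 were matched and only 1, HBA1, had enough reads to be tested. HBB, HBA2 and HBG had no match. The 4 matched markers summed to 1.45 to 4.35 CPM in QHMM and 1.99 to 3.64 in STH, and these ranges overlapped. The part of blood in the AMPD3 values was not tested.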

How the data were processed

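Per the labels and the methods, the authors mapped filtered reads to the sheep genome (Oar_v3.1), kept unique mapped reads and deposited read counts per gene without normalization, and RPKM values that scale the counts by gene length and library total. The aligner, counting program, annotation release and use of strand are not given in the sources used here. Counts were tested in R 4.3.3 with edgeR 4.0.16 (TMM, filterByExpr, glmQLFTest, breed as the only term). FDR is Benjamini-Hochberg over all tested genes, and EBSeq, the program of the study, was not run. SEs are the size of the log2 fold change over the root of F. DESeq2 1.42.0 and limma 3.58.1 (limma-trend on the deposited RPKM) served as alternatives. Shares used RPKM within a library. The methods were tested on simulated counts. List symbols were matched by gene ID, otherwise by a single hit in the table's BLAST symbol column. Outside the 8 genes, each list's called genes are named, or up to 3 by p-value where fewer than 3 were called, with exceptions stated in the text. The members and lists were chosen with earlier results of these data known. Each library was 1 animal, so the tests set each breed difference against the spread between animals. edgeR, DESeq2 and limma estimate that spread for a gene with help from the other genes. No sequence or coordinates are given, since the gene reference at hand was of another assembly.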

Additional observations from a re-analysis of the deposited data

How the results depend on the processing

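In all, 13 alternatives with 6 libraries, 6 fits that each left out 1 library and 1 without QHMM replicate 2 and STH replicate 3 were run. The last, and limma-trend on log2(RPKM / TMM + 1), were chosen after seeing the data. All 8 genes kept their sign in each, except PRKAA2, which had -0.60 to 0.11 with 1 library left out and was above 0 without STH replicate 3. CAB39, a partner of STK11, had -0.04 to 0.31 with 1 library left out and was below 0 without QHMM replicate 1. The number of the 8 called was 0 in edgeR, 1 with DESeq2 and 0 to 1 with 1 library left out. Over all tested genes, 432 were called, and 959 with DESeq2, 806 with no filter on low counts, 41 at an FDR below 0.01, 78 with limma-trend on log2(RPKM + 1) of every gene above 0, 11 without QHMM replicate 2 and STH replicate 3, and 131 to 535 with 1 library left out. In the same order of settings, the substrates had 4, 5, 6, 0, 1, 0 and 2 to 4 calls, the nucleotide genes 3, 6, 3, 1, 1, 0 and 1 to 3, the upstream regulators 2, 2, 2, 1, 2, 0 and 1 to 2, and the uptake genes 0, 3, 3, 0, 0, 0 and 0 to 2. The uptake genes also had 1 call with at least 10 counts in every library, 1 with robust dispersions, 1 without the 20 most abundant genes, 1 with log2(RPKM / TMM + 1), 2 with the replicate block and 2 with limma-trend on log2(RPKM + 1) after an RPKM filter, and the same with 0.1 as the added constant. The related kinases had 1 call with no filter on low counts and 0 otherwise. The cause of these differences was not tested. The 5 shares kept their sign throughout, also from raw counts.

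Same-numbered libraries correlated in their deviations from the breed means with 0.226, -0.038 and -0.13 over genes, and 2 of the 6 libraries correlated best with their own number, so the labels' numbers were not taken as pairs. With the replicate block, 457 genes and 0 of the 8 were called, PRKAG3 had -1.18 (FDR = 0.0577) and PRKAB2 -0.76 (FDR = 0.134). The mean within-number difference equals the difference of means for each share. With 3 animals a breed, a level of PRKAA1 or PRKAA2 that was 1.5-fold higher in STH lay inside the 95% interval.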
